A study of Mus musculus with 8 samples.

Results

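In C2C12 cells, mouse myoblasts of an established line that form myotubes once serum is lowered, 2682 of the 9154 p300 intervals called after bexarotene treatment were also called without it, lay 1 to 50 kb from a protein-coding transcription start site (TSS) and overlapped no myogenin interval. These 2682 intervals, the members, are described here. They were chosen by their positions in the deposited peak lists, in steps: 7298 of the 9154 bexarotene (Bex) intervals overlapped a control (Ctl) interval by at least 1 bp, 3714 of those had their center over 1 kb and at most 50 kb from a TSS, 2735 of those overlapped neither myogenin list, and 53 more were left out because they lie between 80 and 100 Mb of chromosome 8, a stretch that held 231 of all Bex intervals. Presence in both lists, the distance to a TSS and the absence of myogenin are therefore the rule itself and no finding.

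The cells, from ATCC and labelled as strain C3H, were differentiated for 24 h in medium with horse serum, without (Ctl) or with (Bex) 50 nM bexarotene, a synthetic agonist selective for the retinoid X receptor (RXR), and no allele or transgene was labelled. Chromatin was precipitated with an antibody against p300 or myogenin, 1 library per condition, so the 2 p300 lists differ by treatment and by library at once and no test between conditions was possible. A peak list is given for 4 of 8 samples, and the input chromatin and the H3K27me3 samples are not used here. The lists hold positions on mm9 and no tag counts, so the depth behind each interval is unknown, and the length of an interval, which follows the caller and the depth, is the only measure of its size.

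p300 is a histone acetyltransferase that is brought to DNA by transcription factors, and its intervals away from promoters mark candidate enhancers. AP-1 dimers of Jun and Fos proteins, Runx factors and Tead factors are widely expressed partners of such elements in myoblasts and fibroblasts, and AP-1 and Tead often act downstream of growth factor, cytoskeletal and Hippo signals. Myogenin and its relative MyoD bind E-boxes as dimers with E proteins, and RXR binds direct repeats of the nuclear receptor hexamer with a partner receptor. A match to a short motif is a description of the letters in a window and not evidence that a factor was bound.

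AP-1 is the motif with the highest ratio to the sequence beside the members, and 5 windows rich in it show how it looks in place. At most 3 AP-1 matches were found within 100 bp of a center, in 7 members, and the 4 of these with the longest Bex intervals are shown with the first in genome order of the 3 others, each at 158 bp. All 5 are printed from the + strand of mm9, 5′ to 3′, as the 200 bases around the center, and capitals mark TGACTCA or its reverse complement TGAGTCA (AP-1), CAGCTG (an E-box that reads the same on both strands), TGTGGT or ACCACA (Runx) and GGAATG or CATTCC (Tead).
Prss23, chr7:96709498-96709697: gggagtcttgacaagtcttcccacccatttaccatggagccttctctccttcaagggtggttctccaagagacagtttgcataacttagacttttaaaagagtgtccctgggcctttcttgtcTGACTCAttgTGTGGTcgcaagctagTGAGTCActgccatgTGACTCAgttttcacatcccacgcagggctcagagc
Ppp2r3a, chr9:101131330-101131529: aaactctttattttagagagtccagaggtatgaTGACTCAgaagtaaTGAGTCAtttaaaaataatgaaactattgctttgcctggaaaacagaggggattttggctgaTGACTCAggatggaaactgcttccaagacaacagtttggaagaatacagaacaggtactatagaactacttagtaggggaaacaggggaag
Gal, chr19:3419351-3419550: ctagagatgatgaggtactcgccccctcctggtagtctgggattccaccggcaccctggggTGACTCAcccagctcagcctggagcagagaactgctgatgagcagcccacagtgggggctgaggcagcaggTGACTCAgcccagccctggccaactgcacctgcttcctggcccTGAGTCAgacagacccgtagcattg
Dock10, chr1:80638512-80638711: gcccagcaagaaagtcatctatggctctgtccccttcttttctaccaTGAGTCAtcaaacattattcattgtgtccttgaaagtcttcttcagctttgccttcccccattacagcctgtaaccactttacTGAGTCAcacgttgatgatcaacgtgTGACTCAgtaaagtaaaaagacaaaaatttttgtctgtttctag
A330021E22Rik, chr5:5648927-5649126: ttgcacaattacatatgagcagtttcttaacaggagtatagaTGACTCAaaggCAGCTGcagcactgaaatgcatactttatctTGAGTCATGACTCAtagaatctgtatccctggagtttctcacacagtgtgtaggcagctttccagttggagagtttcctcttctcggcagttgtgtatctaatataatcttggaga

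The Prss23 member lay 43502 bp upstream of the TSS of Prss23, a gene for a secreted serine protease, in intergenic sequence, and its interval was 302 bp long in Ctl and 283 bp in Bex. The Ppp2r3a member was in intron 1 of Ppp2r3a, a regulatory subunit of protein phosphatase 2A, with 320 bp in Ctl and 267 bp in Bex. The Gal member lay 4979 bp upstream of Gal, the neuropeptide galanin, and was the longer one in Bex, with 159 bp in Ctl and 253 bp in Bex. The Dock10 member was in intron 2 of Dock10, an exchange factor for small GTPases, with 261 bp in Ctl and 211 bp in Bex. In the A330021E22Rik window, in intron 3 of that gene, 2 of the 3 matches abutted without a base between them, and the interval was 558 bp in Ctl and 158 bp in Bex.

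A second set of windows shows how the other motifs occurred, alone or together, at members near genes of the listed pathways. These are the longest members near Jun, an AP-1 subunit, near Cdon, a cell surface receptor that promotes myogenic differentiation, near Hdac4, a class II histone deacetylase that restrains Mef2, and near Rxra, the gene of an RXR, with the same marking.
Jun, chr4:94767483-94767682: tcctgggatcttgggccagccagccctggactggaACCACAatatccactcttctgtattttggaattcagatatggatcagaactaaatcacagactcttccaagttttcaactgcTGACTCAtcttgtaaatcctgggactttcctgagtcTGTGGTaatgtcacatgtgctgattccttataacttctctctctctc
Cdon, chr9:35179955-35180154: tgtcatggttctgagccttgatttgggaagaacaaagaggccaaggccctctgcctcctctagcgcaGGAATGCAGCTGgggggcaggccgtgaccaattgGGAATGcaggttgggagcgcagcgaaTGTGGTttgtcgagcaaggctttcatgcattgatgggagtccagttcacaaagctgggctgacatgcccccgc
Hdac4, chr1:93951841-93952040: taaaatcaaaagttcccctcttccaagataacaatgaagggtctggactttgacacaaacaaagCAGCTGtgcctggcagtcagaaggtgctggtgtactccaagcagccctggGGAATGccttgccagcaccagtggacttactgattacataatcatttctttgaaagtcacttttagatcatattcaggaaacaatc
Rxra, chr2:27523282-27523481: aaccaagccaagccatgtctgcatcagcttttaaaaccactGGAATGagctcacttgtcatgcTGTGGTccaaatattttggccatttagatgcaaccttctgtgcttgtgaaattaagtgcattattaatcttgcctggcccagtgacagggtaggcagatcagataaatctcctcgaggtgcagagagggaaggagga

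The Jun member lay 48670 bp upstream of Jun and held 1 AP-1 match between 2 Runx matches. The Cdon member lay 48658 bp upstream of Cdon and held 2 Tead matches, 1 CAGCTG directly beside one of them, and 1 Runx match, with no AP-1 match. The Hdac4 member, in intron 1, held 1 CAGCTG and 1 Tead match. The Rxra member was the only one nearest to any of the 15 listed retinoid receptor and metabolism genes. That share was near the 8.68% of all protein-coding genes that were nearest to a member. Of the 15, 3 had a member within 50 kb of a TSS, where 14.6% of all protein-coding genes did. The Rxra member lay 8578 bp upstream of Rxra, measured 572 bp in Ctl and 208 bp in Bex, and held 1 Tead and 1 Runx match.

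AP-1 was the motif that set the members furthest apart from the sequence beside them. TGACTCA, on either strand, was found within 100 bp of the center in 927 of 2682 members, or 34.6% (95% Wilson interval, 32.8 to 36.4%). In 5163 windows of the same length 2 kb away that held no p300 interval, the flanks, it was found in 3.37%, so the share was 10.3 times as high in the members, a difference of 31.2 percentage points (95% Newcombe interval, 29.3 to 33.1). Over all 9154 Bex intervals, the members included, the share was 27.1%. All such intervals cover counting error over regions only and not the variation between cultures.

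Runx, CAGCTG, Tead and nuclear factor I motifs were also frequent, at lower ratios to the flanks than AP-1. TGTGGT, the Runx core, was in 36.9% of members and 15.4% of flanks, a ratio of 2.39, and in 32.7% of all Bex intervals. CAGCTG was in 26.4% and 8.83%, a ratio of 2.99, in intervals that by the rule carried no myogenin call, and was more frequent over all Bex intervals, at 32.1%. TTGGCA, the nuclear factor I core, was in 21.6% and 9.68%, and GGAATG, the Tead core, in 19.4% and 11.1%. Over all Bex intervals these were at 19.6% and 18.9%, near the members. TTGCNNAA, bound by C/EBP factors, was in 16.4% and 8.25%. These shares lay above those of the flanks by more than the counting error, the smallest difference being 8.12 percentage points (6.56 to 9.73) for C/EBP. The cyclic AMP response element TGACGTCA had the ratio next to that of AP-1, 4.33, but rests on 9 members (0.336%) and 4 flanking windows (0.0775%), a difference of 0.258 points (0.058 to 0.563).

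**Figure D1:**
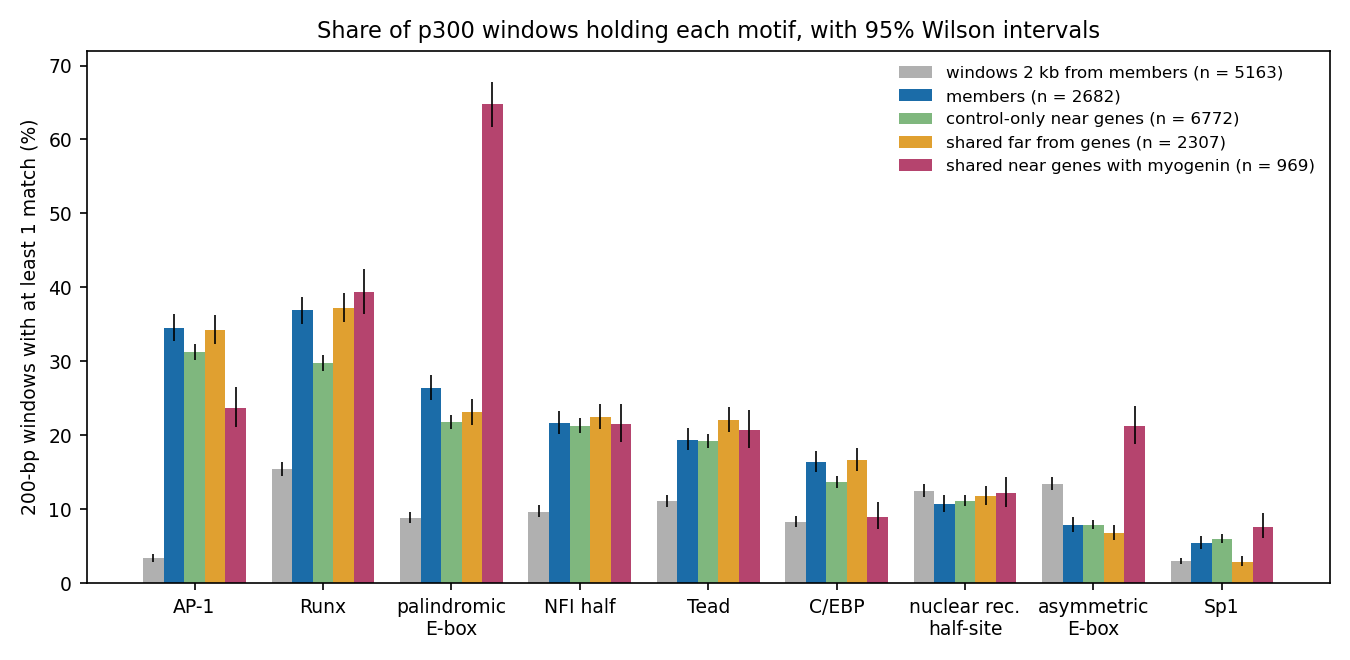
Percent of 200-bp windows with at least 1 match to each motif, with 95% Wilson intervals, for the members, for windows 2 kb from them and for 3 other classes of p300 intervals. The palindromic E-box is CAGCTG and the asymmetric E-box is CACCTG. The members reach 34.6% for AP-1 against 3.37% in the flanks, and the class with myogenin reaches 64.8% for the palindromic E-box.

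Not every motif was more frequent in the members. CACCTG, another E-box, was in 7.87% of members and 13.4% of flanks, a ratio of 0.585 and a difference of -5.57 percentage points (-6.93 to -4.17). The nuclear receptor hexamer AGGTCA was in 10.7% of members and 12.49% of flanks, a difference of -1.79 points (-3.24 to -0.286). The direct repeat of that hexamer with a spacer of 1 base (DR1), a form that RXR can bind, was found in 0 of 2682 members, which allows a share of up to 0.112% if 3 counts are taken as the upper limit of a count of 0, and in 3 flanking windows. It was found in 3 of the 9154 Bex intervals. The Mef2 motif was in 0.485% of members and 0.581% of flanks, and the steroid receptor palindrome in 0.149% and 0.31%. For Mef2, steroid receptor, Ets (CCGGAA), Stat (TTCNNNGAA), forkhead (TGTTTAC) and Meis (TGACAG) motifs the interval of the difference from the flanks included 0. For these motifs a difference from the flanks was not detectable with these numbers of windows.

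A ranking of all 8190 distinct 7-base words, both strands counted as 1, by the share of members minus the share of flanks used no chosen motif. It was made after the motif shares had been seen. The first word was TGACTCA itself and the second was AACCACA, whose reverse complement TGTGGTT extends the Runx core, in 18.5% of members and 5.19% of flanks. CAGCTGC, the first word with an E-box, was in 14.8% and 3.54%. Among the first 20 words were also 2 that differ from the AP-1 site by a single base, TGAATCA in 10.1% and 2.65% and TGACTAA in 9.51% and 2.27%. CTTGGCA, which holds the nuclear factor I core, was in 9.81% and 3.33%. At the other end the word with the largest deficit was GAACTCA, in 2.87% of members and 7.44% of flanks, and most of the last 20 words were rich in A and T. Whether repeats account for the low words was not tested, since the genome used had no repeat marking.

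The matches crowded at the center of the members. AP-1 matches stood at 3.18 per kb within 20 bp of the center, at 0.941 per kb between 80 and 100 bp, and at 0.217 per kb between 500 and 1000 bp. Runx matches fell from 2.80 to 0.889 per kb between the same first and last distances, CAGCTG matches from 2.10 to 0.542 and Tead matches from 1.33 to 0.601. CACCTG went the other way, with 0.438 per kb within 20 bp and 0.746 per kb between 500 and 1000 bp. The AP-1 decline was thus the steepest of the 5. The CACCTG deficit reached past 100 bp from the center, with 0.410 per kb from 100 to 120 bp and 0.494 per kb from 320 to 340 bp. Its density was 0.764 per kb from 340 to 360 bp.

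**Figure D2:**
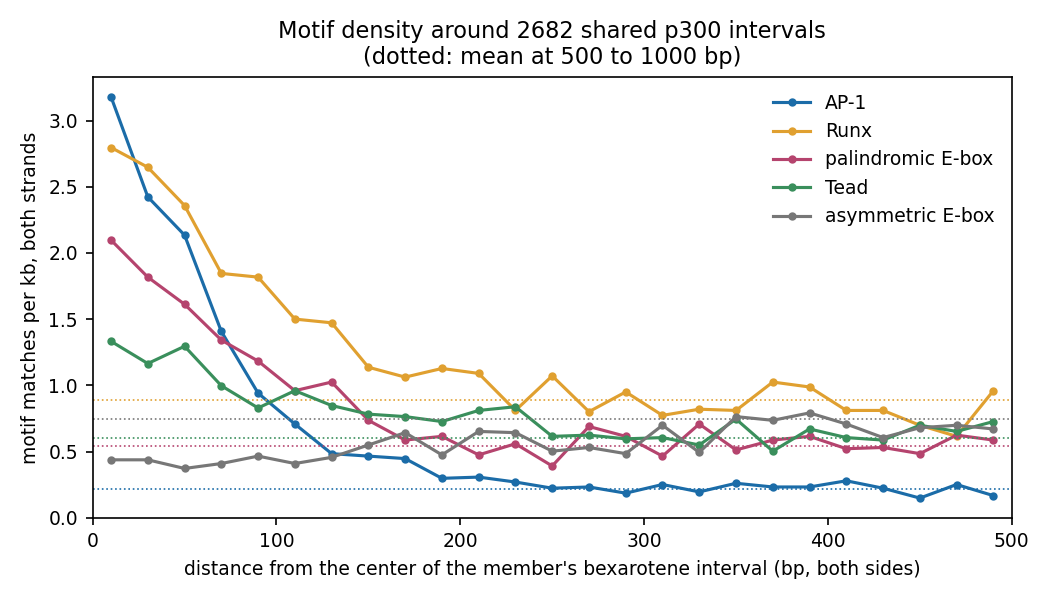
Motif matches per kb, both strands, in steps of 20 bp from the center of the member's Bex interval, both sides pooled over 2682 members, with dotted lines at the mean density 500 to 1000 bp away. AP-1 starts at 3.18 per kb and ends at 0.217, while the asymmetric E-box, CACCTG, starts below its distant level of 0.746.

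The bases beside the motifs also differed between members and flanks. Each AP-1 match was read on both strands, and a T stood directly 5′ of the core on 6.64% of 2124 sides in members (5.66 to 7.78%) and on 19% of 348 sides in flanks (15.2 to 23.4%). In control-only intervals near genes it was present on 8.18% of 4716 sides. At the next base out the shares of T in members and flanks were 28.4% and 30.7%, and their intervals overlapped. The core CAGCTG was followed by a pair of pyrimidines on at least 1 strand at 61.8% of 843 matches in members (58.5 to 65.0%) and 48.1% in flanks. The share was 55.9% in control-only intervals near genes (53.5 to 58.3%) and 78.4% in shared intervals that overlap myogenin.

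Many members held more than 1 kind of motif. Of the members, 17.4% held none of the 5 motifs AP-1, Runx, CAGCTG, Tead and TTGGCA, 39.7% held 1 kind, 31.2% held 2, 10.2% held 3 and 1.49% held 4, while 60.1% of flanks held none and 7.24% held 2. A single member held all 5. Where AP-1 was present the others were less frequent. CAGCTG was in 22.0% of the 927 members with AP-1 and 28.7% of the 1755 without it, a difference of -6.71 points (-10.1 to -3.25), and Runx was in 32.5% and 39.2%, a difference of -6.73 points (-10.5 to -2.91). Tead was in 16.6% and 20.9%, and TTGGCA in 19% and 23%. Among the other 4 motifs the intervals of the pairwise differences included 0, from -3.94 points for CAGCTG with against without Tead to 3.54 points for Runx with against without Tead.

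Repeated matches of 1 motif were in the minority. Of the members with AP-1, 788 held 1 match, 132 held 2 and 7 held 3. Runx reached 9 matches in a single window, CAGCTG 4, and Tead 3. In the 139 members with more than 1 AP-1 match the gap between the nearest pair was under 20 bp in 45. Only 2 flanking windows held more than 1 AP-1 match.

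The members were set beside 3 like classes of p300 intervals, each outside the same stretch of chromosome 8. The first was 6772 intervals called in Ctl only, at the same distance from a TSS and without myogenin. AP-1 was in 31.2% of them, 3.35 points below the members (1.25 to 5.47), but only 1.11 points below with intervals longer than the smallest and 0.624 points below with the longer AP-1 consensus ATGACTCAT. Runx was in 29.8%, 7.11 points below (4.99 to 9.24). CAGCTG was in 21.8%, 4.65 points below (2.73 to 6.60), and C/EBP in 13.7%, 2.69 points below (1.10 to 4.35). Tead, CACCTG and TTGGCA did not differ beyond counting error. The windows were centered on Bex intervals in 1 class and on Ctl intervals in the other, and the median length in the own list was 198 bp for the members and 200 bp for the control-only class, while the Ctl intervals under the members had a median of 330 bp.

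The difference in AP-1 was not even over interval length. With windows centered on the Ctl interval in both classes, AP-1 was in 30.9% of members and 27.9% of control-only intervals at the smallest Ctl length of 159 bp, and the interval of the difference was -2.55 to 9.07 points. From 250 to under 350 bp the shares were 41.2% and 35.2%, a difference of 6.03 points (1.74 to 10.3). From 500 bp on they were 15.9% of 452 members and 21.2% of 156 control-only intervals, a difference of -5.22 points (-12.9 to 1.53). A window of 200 bp leaves out most of such an interval. Counted over the whole Ctl interval, 46.5% of these 452 members held AP-1, and the control-only class was not counted that way. For Runx the differences ran from 0.511 points (-3.68 to 4.75) from 250 to under 350 bp to 11.97 points (6.0 to 18.2) at the smallest length, and the interval lay above 0 in 4 of the 5 length classes. By chromosome, the share of members with Runx was above the control-only share on 19 of 20 chromosomes, and the share with AP-1 on 16 of 20, with member shares for AP-1 from 29.0 to 46.0%.

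The second class, 2307 shared intervals over 50 kb from any TSS and without myogenin, was close to the members in AP-1 and Runx. AP-1 was in 34.3% of it, a difference of 0.277 points (-2.37 to 2.92), and Runx in 37.3%, a difference of -0.402 points (-3.09 to 2.28). CAGCTG was 3.29 points more frequent in the members (0.891 to 5.68), and Tead 2.64 points less frequent (difference of -2.64 points, -4.90 to -0.384). GGGCGG, the Sp1 core, was in 5.41% of members and 2.90% of the distant class, a difference of 2.50 points (1.40 to 3.61). The median GC content was 46.5% in the members and 44.5% in the distant class.

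The third class, 969 shared intervals near genes that overlap a myogenin interval, differed most. CAGCTG was in 64.8% of it, 38.4 points above the members (difference of -38.4 points, -41.8 to -34.9), and CACCTG in 21.3% (difference of -13.4 points, -16.2 to -10.7). TGACAG, the core of Meis factors, which can act with MyoD, was in 22.0% and in 14.5% of members (difference of -7.48 points, -10.5 to -4.63). AP-1 was in 23.7%, 10.8 points below the members (7.53 to 14.0), and C/EBP in 8.98%, 7.39 points below (5.00 to 9.58). Runx, Tead and TTGGCA did not differ beyond counting error, with differences of -2.55 points (-6.1 to 1.0), -1.32 points (-4.35 to 1.56) and 0.057 points (-3.0 to 3.0). The members and the class with myogenin thus held Runx, Tead and nuclear factor I motifs at like shares, while AP-1 and C/EBP were higher in the members and both E-boxes and the Meis motif were lower. The rule splits these 2 classes by overlap with myogenin, which binds E-boxes, so the E-box differences are not independent of the rule.

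Longer members did not hold more AP-1 per base. Over the whole Bex interval AP-1 was in 31.3% of the 1265 members at the smallest length of 158 bp and in 41.0% of the 39 members of 500 bp or more, but its density fell from 2.24 to 0.789 matches per kb. Runx was in 29.96% at the smallest length and in 69.2% of the longest, with a density of 2.25 per kb and 1.95 per kb. CAGCTG density fell from 1.66 to 0.872 per kb. Counted over the whole Ctl interval, 42.2% of members held AP-1 and 49.3% held Runx.

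**Figure D3:**
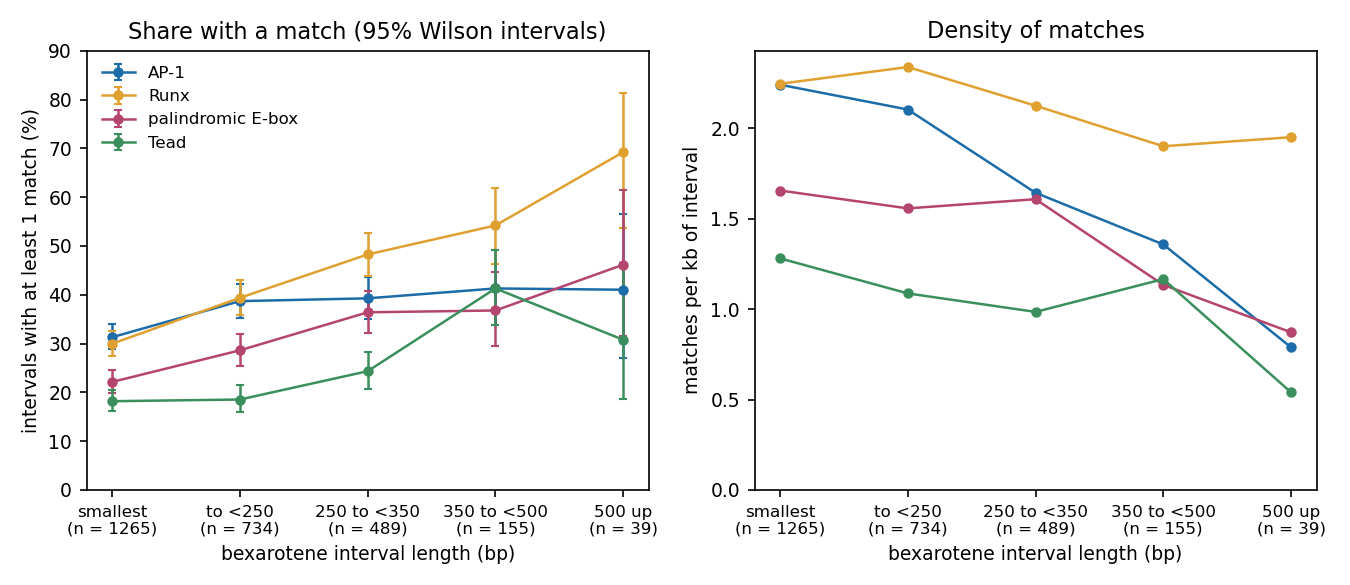
Left, percent of members whose whole Bex interval holds at least 1 match, with 95% Wilson intervals, by interval length in bp; right, matches per kb of interval. AP-1 density goes from 2.24 per kb at 158 bp to 0.789 at 500 bp and above, while Runx stays between 1.90 and 2.34.

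The members' intervals were mostly shorter in Bex than in Ctl. The lengths ran from 159 to 3116 bp in Ctl, with a median of 330 bp, and from 158 to 1178 bp in Bex, with a median of 198 bp. The median log2 ratio of lengths, Bex over Ctl, was -0.64, with quartiles of -1.07 and -0.29, and the ratio was -0.61 over all 7298 shared intervals. In all, 2455 members (91.5%) were shorter in Bex, 224 were longer and 3 were equal. Of the members 750, or 28.0%, were over 2-fold shorter in Bex, where 26.2% of all shared intervals were, and 3 members were over 2-fold longer, against 0.26% of all shared intervals. The share of shorter members was near its background, 90.2% over all shared intervals, while the smallest Bex length of 158 bp was the length of 47.2% of members (45.3 to 49.1%) and of 40.8% of all shared intervals, the members included. With 1 library per condition treatment and depth cannot be told apart: the Ctl list held 22051 p300 intervals and the Bex list 9154, of which 79.7% overlapped a Ctl interval, while 32.7% of Ctl intervals overlapped a Bex interval.

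**Figure D4:**
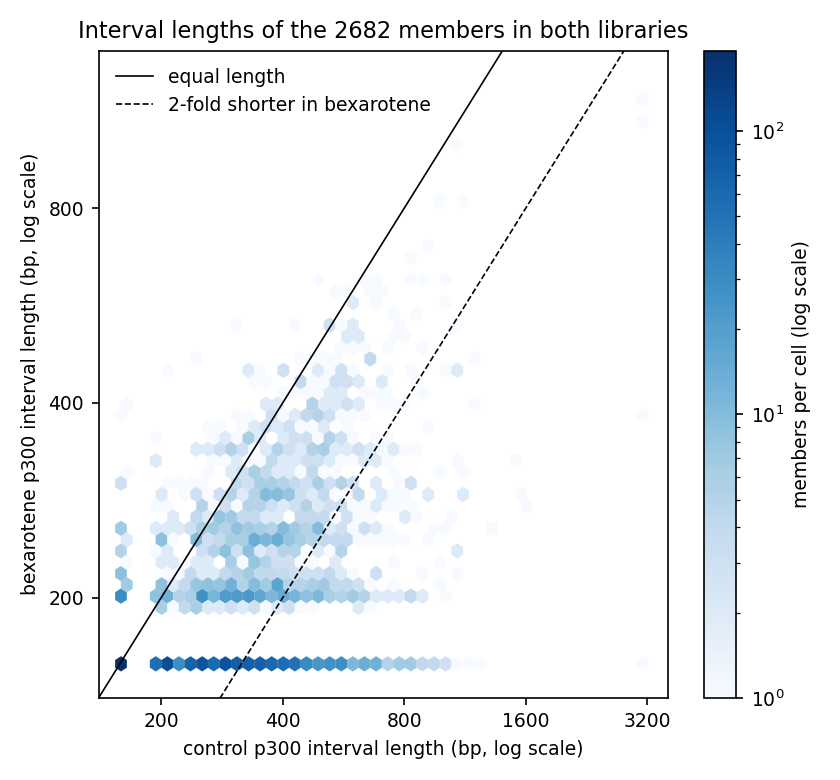
Length of each member's Ctl interval against its Bex interval, in bp on log axes, shaded by the number of members per cell. Most of the 2682 members lie under the line of equal length, and 1265 sit at the smallest Bex length of 158 bp.

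The 3 members that were over 2-fold longer in Bex were near Rbms1, Aqp2 and Ccdc6. The Rbms1 member, in intron 2 of a gene for a single-stranded nucleic acid binding protein, measured 159 bp in Ctl and 401 bp in Bex. The Aqp2 member, in intron 3 of a water channel gene, measured 159 and 374 bp, with an overlap of 93 bp. The Ccdc6 member, upstream of a coiled-coil protein gene, measured 206 and 449 bp. None of these 3 held an AP-1, Runx, CAGCTG or Tead match within 100 bp of its center. A member 2308 bp upstream of a TSS of Ptch1, the Hedgehog receptor, measured 159 and 304 bp. At the other end a member in intron 4 of St3gal3, a sialyltransferase gene, measured 1145 bp in Ctl and 158 bp in Bex. Members near 1700012B07Rik and Cdkn2aipnl went from 1197 and 1066 bp in Ctl to the smallest Bex length of 158 bp.

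The 2 longest members lay in the Mir21 locus, and 4 members rest on a single Ctl interval there. Mir21, the gene of the miR-21 microRNA, is at chr11:86397569-86397660 on the minus strand, inside the annotated span of Vmp1, a gene of autophagosome formation, near its 3′ end. The Ctl interval at chr11:86394042-86397157, 3116 bp long and just past the 3′ end of Vmp1, was overlapped in Bex by intervals of 1178, 158, 1073 and 374 bp. A further 5 members lay within Vmp1, in its UTR, in intron 10 or in intron 9, with Bex lengths from 158 to 543 bp. All 9 had Tubd1, a tubulin gene that neighbours Vmp1, as their nearest protein-coding TSS, which made Tubd1 the gene with the most members. Of the 9, 2 held an AP-1 match within 100 bp of the center, where 34.6% of all members did.

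Other long members lay at genes of signalling and migration. A member of 995 bp in Bex and 1076 bp in Ctl overlapped the UTR of Stambpl1, a deubiquitinase gene. A member of 839 bp in Bex and 1108 bp in Ctl was in intron 2 of Rhobtb1, a gene for a GTPase-related protein. One of 837 and 994 bp was in intron 2 of Ptpn4, a tyrosine phosphatase. It held no match to AP-1, Runx, CAGCTG or Tead within 100 bp of its center. One of 691 and 935 bp lay 8344 bp from the TSS of S100a10, the light chain of annexin A2. Further long members were in introns of Pde4b (630 bp), a cyclic AMP phosphodiesterase, Nrp2 (626 bp), a receptor for semaphorins and VEGF, and Mecom (629 bp), a zinc finger regulator. 1 of the 10 longest Bex intervals, in the Mir21 locus, held an AP-1 match within 100 bp of its center, where 34.6% of all members did. That window leaves out most of such long intervals. Counted over the whole Bex interval, AP-1 was in 41.0% of the 39 members of 500 bp or more.

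Inside the limits set by the rule the members were spread over introns and intergenic sequence. Introns held 50.0%, intergenic sequence 47.5% and exons or UTRs 2.54%, and 19.1% were in intron 1. The control-only class had 52.3% in introns, and the distant class 29.3%, which its distance from any TSS bears on. The distance to the nearest TSS had a median of 17934 bp, 46.5% lay at 20 to 50 kb and 14.4% at 1 to 5 kb, and 47.0% lay upstream. AP-1 did not follow that distance: it was in 32.2% of members at 1 to 5 kb, 38.6% at 5 to 10 kb, 33.4% at 10 to 20 kb and 34.6% at 20 to 50 kb. At the limits of the rule, the members closest to and farthest from a TSS were at 1004 bp (Sipa1l1) and 49950 bp (Jarid2), and the nearest intervals left out were at 991 bp (Lrrc16a) and 50078 bp (A930005H10Rik). The smallest overlap with a Ctl interval was 6 bp, near Cyr61, and the nearest interval without overlap had a gap of 1 bp, near Tbx19.

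Members without a myogenin call often had one in the neighbourhood. A myogenin interval lay within 1 kb of 200 members (7.46%), within 5 kb of 471 (17.6%) and within 50 kb of 1468 (54.7%). In the control-only class the shares were 5.52%, 15.2% and 53.5%. The member near Gpc1, a glypican gene, abutted a myogenin interval with a gap of 0 bp.

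In all 1928 of 22208 protein-coding genes (8.68%) were the nearest gene of at least 1 member, and 14.6% had a member within 50 kb of a TSS. Of the 1928 genes, 1430 had 1 member, 323 had 2, 125 had 3, 31 had 4 and 19 had 5 or more. After Tubd1 with 9 came Tns3, a focal adhesion tensin, and Myo10, the myosin of filopodia, with 7 each. Nfib, a nuclear factor I gene, Pde4b, Dlc1, a GTPase-activating protein, and 2310037I24Rik had 6 each. Pip4k2a, Lrrc17 and Apbb2 had 5 each. The 7 Tns3 members lay between 8574767 and 8607168 on chromosome 11, all outside the gene, in 32402 bp, and each had its own Ctl interval, with Bex lengths from 158 to 414 bp. 3 of them held a Runx match, 3 a Tead match and 2 an AP-1 match, where 36.9%, 19.4% and 34.6% of all members did. The 6 Nfib members were all in introns of Nfib. 4 of the 5 Lrrc17 members held an AP-1 match, against 1 of 5 for Pip4k2a and 2 of 5 for Apbb2, where 34.6% of all members did.

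Gene lists of the tissue and pathways are given by counts, since the lists were drawn up with earlier results known and may hold many expressed genes. Over all protein-coding genes 8.68% were nearest to a member and 17.6% to an interval of the larger control-only class. Of the lists, collagen and matrix genes had the highest share for the members, with 18 of 30 nearest to a member and 21 of 30 nearest to a control-only interval. They had 36 members in all, 33 of them shorter in Bex and 12 with an AP-1 match, near the shares over all members of 91.5% and 34.6%. Among them were 3 members of Col6a3, a chain of type VI collagen, all with AP-1 and with Ctl lengths of 438, 372 and 319 bp and Bex lengths of 236, 302 and 158 bp. Lox, the collagen cross-linking oxidase, had 3 members upstream, the longest of 507 bp in Bex. A Thbs1 member 1113 bp from the TSS of this matrix glycoprotein gene was 959 bp in Ctl and 253 bp in Bex and held 2 CAGCTG matches. 1 of the 36 matrix members had a myogenin interval within 1 kb, where 7.46% of all members did.

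Lists of cytoskeletal and signalling genes also had shares above the 8.68% of all genes, and the control-only class had more of them. Members were nearest to 8 of 20 actin cytoskeleton genes, 7 of 17 Hippo pathway and YAP target genes, 8 of 22 TGF-beta and activin genes, 9 of 26 growth factor signalling genes and 5 of 12 Notch pathway genes. Control-only intervals were nearest to 17, 11, 13, 19 and 8 genes of these lists. Of 20 fusion and adhesion genes 7 had a member, and of 14 cell cycle genes 4, against 14 and 6 for the control-only class. The class that overlaps myogenin was nearest to 7 fusion and adhesion genes and 5 Notch pathway genes, the same counts as the members. It was nearest to 5 Hippo pathway, 5 actin cytoskeleton, 3 TGF-beta, 3 growth factor and 0 cell cycle genes. Of all protein-coding genes, 3.61% were nearest to an interval of that class. Cyr61, a secreted YAP target, had 3 members, of which the longest, 1820 bp upstream, measured 525 bp in Ctl and 435 bp in Bex. Amotl1, a scaffold that holds YAP, had 2 intronic members, and 1 of them held AP-1, Runx and Tead matches together. Smad3, a transducer of TGF-beta, had 3 intronic members, with Ctl lengths of 550, 258 and 341 bp and Bex lengths of 158, 291 and 158 bp. Met, the receptor of hepatocyte growth factor, had 1 member in intron 16 that was 388 bp long in both lists. The longest member near Tgfb2, a TGF-beta ligand, measured 678 bp in Ctl and 415 bp in Bex, and that near Myc, a driver of proliferation, measured 565 and 531 bp. Cald1, the gene of caldesmon, an actin-binding protein, had 3 members in introns, of which the longest measured 326 bp in Ctl and 372 bp in Bex, with an overlap of 200 bp. Notch2, a Notch receptor, had 1 in intron 2, with 533 and 464 bp. Within 100 bp of the center none of the 8 Notch pathway members held an AP-1 match and 4 held a Tead match, where 34.6% and 19.4% of all members did.

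Of 15 listed myogenic regulators 5 had a member and of 29 sarcomere genes 2, the latter near the share over all genes. The control-only class had 8 and 10. The Myod1 member lay 38700 bp upstream of Myod1, the gene of MyoD, at chr7:53593043-53593244, measured 250 bp in Ctl and 202 bp in Bex, held 1 AP-1 and 1 Tead match, and had its nearest myogenin interval 3651 bp away. Six4, a homeodomain regulator of muscle genes, had a member in intron 3 with 1 CAGCTG, 1 Runx and 1 Tead match, and a myogenin interval 127 bp away. Id2 and Tcf12, the latter an E protein partner of MyoD, had 1 each. The sarcomere genes were Tpm1, a tropomyosin that is also made in cells without sarcomeres, with 3 members, and Myom1, an M-band protein, with 1. In the class that overlaps myogenin, 5 sarcomere genes and 4 myogenic regulators had an interval, where 3.61% of all protein-coding genes did.

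Of the genes of factors whose motifs were counted, 3 of 11 AP-1 genes and 3 of 8 Runx and Tead genes had a member. The control-only class had 4 and 3, and the class that overlaps myogenin 0 and 3. Over all protein-coding genes the shares were 8.68% for the members, 17.6% for the control-only class and 3.61% for the class with myogenin. Jun had 3 members upstream, at 1135, 46303 and 48670 bp, the far pair each with 1 AP-1 match. Fos had 1 member 45879 bp downstream of its TSS with 2 AP-1 matches, 294 bp in Ctl and 158 bp in Bex, and Fosl2 had 1 in intron 1 without an AP-1 match. Runx1 had 3 members in intron 2, 2 of them with AP-1, and Runx2 and Tead1 had 1 and 2. Of 16 acetyltransferase and deacetylase genes 4 had members, and 4 had a control-only interval.

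**Figure D5:**
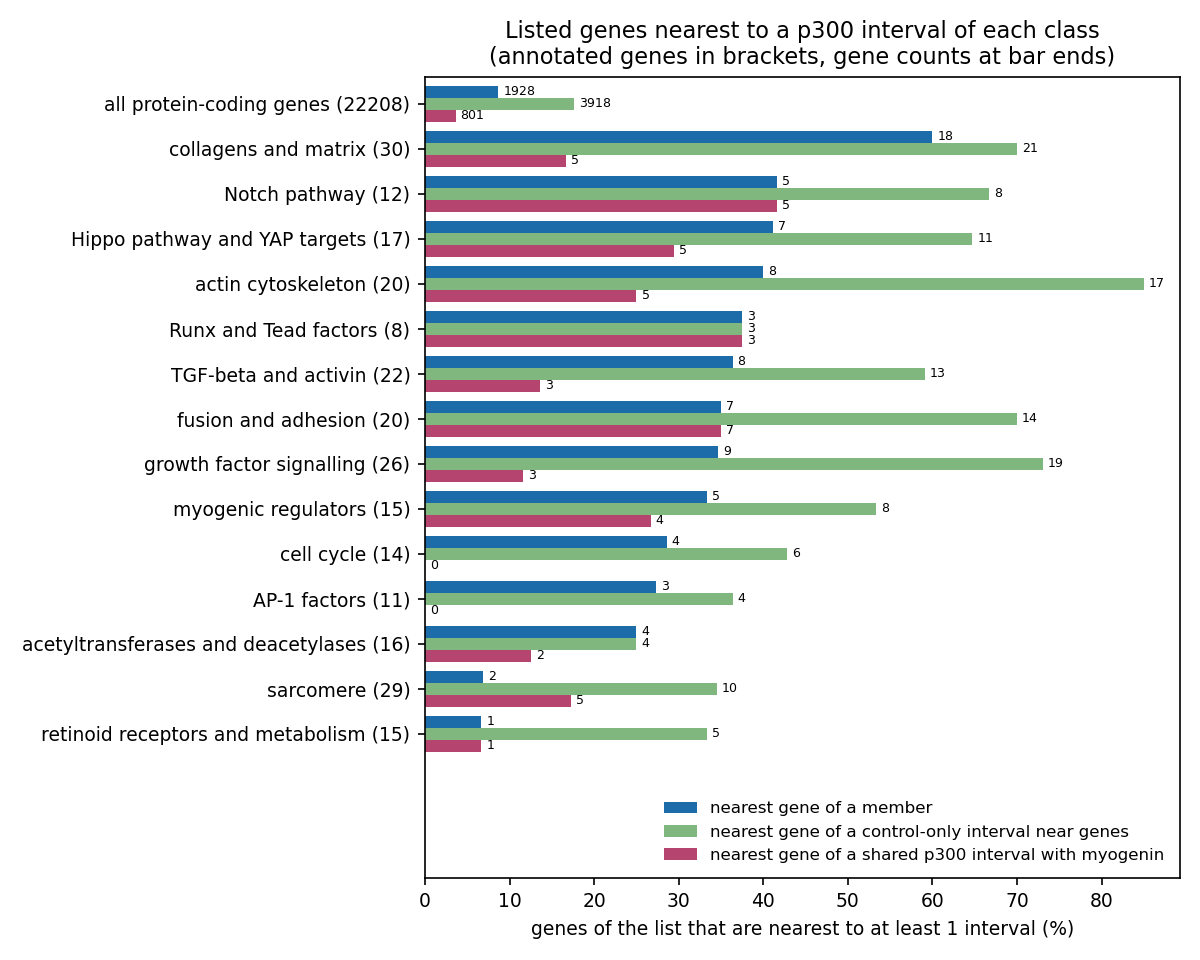
Percent of the genes of each list that are the nearest gene of at least 1 member, of at least 1 control-only interval near genes, or of at least 1 shared p300 interval that overlaps myogenin; brackets give the annotated genes and bar ends the gene counts. The members reach 18 of 30 matrix genes and 2 of 29 sarcomere genes, against 8.68% of all genes, and the control-only class reaches 21 and 10.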

How the data were processed

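The data are ChIP-seq of p300 and of myogenin in C2C12 cells, with 1 library per condition. Reads were aligned to mm9 by the authors with Bowtie (p300) or BWA-MEM (myogenin), duplicates were removed with Picard, and peaks were called on each library separately with HOMER in the factor style, so a peak caller's threshold is already in the deposited lists. The deposited columns are chromosome, start and end, with starts counted from 0, and are printed here counted from 1. They hold no tag counts, scores or input values.

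Members and lists were chosen with earlier results of these data known. A Bex interval counted as shared when it overlapped a Ctl interval by at least 1 bp. Distances ran from the interval center to the nearest of 45982 TSS positions of protein-coding transcripts in GENCODE vM1, and genes were named by that TSS. Sequences came from the mm9 genome. On both strands 19 motifs were searched up to 100 bp from the center, and the flanks were windows 2 kb to either side without a p300 interval of either list. Matches given for named members and for gene lists are those within 100 bp of the center. Genes named are the 10 members with the longest Bex interval, the 5 with the largest and the 5 with the smallest length ratio, the 10 genes with most members, the 5 members with most AP-1 matches and, in each of 14 gene lists, the longest member. Others, such as Myod1, Fos, Smad3 and the Mir21 locus, were picked after their values were seen. Some genes that these rules name are not reported here.

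Shares carry 95% Wilson intervals and differences 95% Newcombe intervals, which cover counting error over intervals and not the spread between cultures. No test between conditions was made. The alternatives changed the overlap rule, the TSS catalog and limits, the myogenin distance, the list that gave the intervals, the length filter, the window, the consensus, the flanks and the assignment to genes. The tools were pysam 0.24.0, pandas 2.3.3 and numpy 2.4.6 under Python 3.11.15, with matplotlib 3.10.9 for the plots. The functions were tested on simulated data.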

Additional observations from a re-analysis of the deposited data

How the results depend on the processing

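Of the settings tried on the counts, shares and differences of the report, 85 left the value within its counting interval, or a count within 1.5 times, 36 moved it further and 9 changed its sign. The number of members fell to 1786 with a reciprocal overlap of 50% and to 1417 with only intervals longer than the smallest, and the share of Bex intervals called in Ctl became 54.6% and 92.3%. With all transcripts 52.8% of members were in an intron. When every gene with a TSS within 50 kb was counted, 3253 genes (14.6%) had a member, among them 3 of 15 retinoid genes and 4 of 29 sarcomere genes. With windows of 50 bp to either side the shares of members were 23.5% for AP-1, 22.9% for Runx, 16.0% for CAGCTG, 11.1% for Tead and 3.91% for CACCTG, and the differences from the flanks 21.8, 14.8, 11.5, 5.64 and -2.86 points. There the differences from the class with myogenin were -28.4 points for CAGCTG and -7.95 for CACCTG, while that of AP-1 from the distant class, -0.301, and that of CACCTG from the control-only class, 0.0757, changed sign inside their counting error. With ATGACTCAT as the AP-1 consensus 4.14% of members had a match, and the differences were 3.98 points from the flanks, 0.624 from the control-only class, 1.56 from the class with myogenin and -0.456 from the distant class, the last with a changed sign. With TGANTCA the share was 41.3%, and the differences were 35.3 points from the flanks and -1.29 from the distant class. With TGTGGTT 18.5% of members had a Runx match, 13.3 points above the flanks and 3.79 above the control-only class. With GGAATGT 7.72% had a Tead match, 4.93 points above the flanks, and the difference from the class with myogenin became 0.288. With any E-box (CANNTG) 75.6% had a match, with differences of 10.8 points from the flanks, 0.886 from the distant class and -16.5 from the class with myogenin. With only intervals longer than the smallest, the AP-1 difference was 1.11 points from the control-only class and -0.152 from the distant class, the Tead difference -1.98 from the control-only class and -4.95 from the distant class, and the CACCTG difference 0.637 from the control-only class. With the center of the Ctl interval the Runx difference from the distant class became 0.404. Chosen after seeing the data, 1 member per nearest gene (1928 members) gave 37.7% with AP-1. The cause of these changes was not tested. The 9 changes of sign were all in differences whose interval included 0. The filter on repeats was not run, since the genome used is not repeat-masked, and the share of masked bases was not computed. No paired analysis was possible because each condition has 1 library. The paper states an average count of uniquely mapped reads over its datasets, but the depth of each p300 library is unknown. A motif share depends on the window and the consensus.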
